A study of Mus musculus with 2 samples.

Results

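The genes described here are 10 genes of natural killer (NK) cell receptors and cytotoxic effectors: Klrd1, Klrk1, Klrb1c, Ncr1, Gzma, Gzmb, Prf1, Nkg7, Il2rb and Eomes. They were taken as every probe whose gene name in the scanner output was one of these symbols, which gave 13 probes for 10 genes, out of 39429 probes for 30165 genes. The cells were mouse bone marrow mononuclear cells, flushed from the femurs of C57BL/6 mice (strain label C57/Bl6J) aged 2 to 4 months into IMDM medium with 2% fetal bovine serum. One culture was given ninjin'yoeito (NYT), a multi-herb drug of Japanese Kampo medicine, and the other was left untreated as the negative control, and RNA was collected from both at day 11. Each culture was read on 1 one-colour array, and both arrays lay on 1 slide. The sources used here give no dose of NYT, no culture conditions beyond the medium used for flushing and no number of animals. Every difference below is therefore between 2 arrays, with no replicate check, no p-value and no error other than that of the spots.

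NK cells are lymphocytes that kill infected or transformed cells without prior sensitisation. Paired activating and inhibitory receptors on their surface, many of them C-type lectins encoded together in the NK gene complex, read ligands on the target cell. When activation prevails, granules are released toward the target, where perforin opens the membrane to granzymes that start cell death. NK cells arise in the bone marrow and depend there on interleukin-15, and much of the same machinery is used by cytotoxic T cells.

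On the NYT array 3 of the 10 genes, Prf1, Nkg7 and Il2rb, had a probe well above background, whereas on the array of the untreated culture all 10 had one. The other 7 genes, Klrd1, Klrk1, Klrb1c, Ncr1, Gzma, Gzmb and Eomes, were detected on the control array alone, which was so for 9.56% of the 19404 genes detected on 1 or both arrays. No gene of the 10 was detected on the NYT array alone, against 2.85% of those 19404 genes. By the measured difference or by the smallest difference that detection allowed, NYT signal was lower by 2-fold or more for 9 of 10, against 13.4% of the 19404 genes, and Prf1 was the exception. Fewer NK cells and less RNA per cell cannot be told apart in RNA from a mixed culture.

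The NYT array was dimmer throughout, with a 75th percentile intensity of 728 against 1475 on the control array, so each array was scaled to that percentile before differences were taken. Log2 differences are NYT minus control after this scaling, on which the median of all 16996 genes measured on both arrays was 0.29. An intensity is the processed signal of a probe in scanner units, given before scaling and with the deposited spot error after the ± sign. Where a probe was not well above background on the NYT array its difference has only a bound, taken against the higher of the lowest signal that was well above background there (19.2) and the probe's own. On the control array that lowest signal was 26.0. For a probe under 19.2 on the NYT array, the bound follows from its control signal alone. A rank or gap among such bounds therefore orders probes by control signal, not by how far each fell. Probes printed repeatedly on an array had a median SD of 0.041 (log2) on the NYT array and 0.031 on the control array, and 0.053 for the difference between the arrays over 247 probes. Such errors cover spots alone, not the spread between cultures or between hybridisations. No spot was saturated.

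The 13 probes were 60 bases long with a GC content between 35% and 55%, and 3 genes had a pair of probes each. The first 30 bases of those pairs, as the files give them, are shown because the size of the difference, or of its bound, was not the same within any pair. For Klrb1c and Eomes the bounds differ through control signal alone. No part is capitalised.
Nkg7 probe 1: aaggaatgcagaattctgtctctgtccctc
Nkg7 probe 2: tctccatattagtggctatggcagtgtaca
Klrb1c probe 1: tgcttatgaagttggtatgctgaagacagt
Klrb1c probe 2: tgcgagtcttagtacaaaaaccatcaagag
Eomes probe 1: gctatgaagaacgagtgcccggtgctatta
Eomes probe 2: tcataagtcatttttaataaatgtggttca
Leaving out the probe for Gzma, the longest run that a probe of the 10 genes shared with a probe of another name was between 12 and 16 bases, on either strand. The Gzma probe overlapped by 54 bases with a probe that carries no gene name in the files. In RefSeq, Gzma overlaps Cdc20b, which was not detected on either array, and Eomes overlaps a long non-coding RNA gene.

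Klrd1 encodes CD94, the invariant partner of the NKG2 receptors that read the class Ib molecule Qa-1. Its probe lies on chromosome 6 at 129548612 to 129548671, plus strand (mouse build mm9, as for all probes here). It gave 6.02 ± 4.10 on the NYT array, against 4016 ± 402 on the control array. Klrd1 was therefore lower by at least 103-fold in the NYT culture, and this bound was the second largest among the 1855 genes detected on the control array alone (rank 2). That rank reflects the brightness of the probe on the control array. Klrk1 encodes NKG2D, an activating receptor for stress-induced ligands of the RAE-1, H60 and MULT1 families, and is the next gene along the chromosome. Its probe (chromosome 6, 129561864 to 129561923, minus strand) stood at 4.03 ± 4.01 on the NYT array, a surrogate value for a spot at background, against 215 ± 22.2 on the control array. The bound for Klrk1 was 5.54-fold, at rank 301 of the 1855 genes.

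Klrb1c encodes NK1.1, the activating receptor by which NK cells of C57BL/6 mice are commonly recognised. Its probe 1 (chromosome 6, from 128729611, minus strand) gave 7.06 ± 4.27 on the NYT array, against 1939 ± 194 on the control array. Its probe 2 (from 128734770, same strand) gave 4.98 ± 4.25 on the NYT array, against 263 ± 26.8 on the control array. Both probes were thus detected in the untreated culture alone, with lower NYT signal by at least 49.9-fold for probe 1 and at least 6.76-fold for probe 2. Ncr1 encodes NKp46, an activating receptor found on NK cells and on some other innate lymphoid cells. Its probe (chromosome 7, 4296176 to 4296235, plus strand) stood at a surrogate value of 4.06 ± 4.05 on the NYT array, against 885 ± 88.7 on the control array, at least 22.8-fold lower. All 4 receptor genes were thus below the detection level of the NYT array and above that of the control array.

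Il2rb encodes CD122, the signalling chain shared by the receptors for interleukin-2 and interleukin-15. Its probe (chromosome 15, 78311109 to 78311168, minus strand) gave 42.2 ± 6.32 on the NYT array, where it was still well above background, against 3666 ± 367 on the control array. The log2 difference was -5.42 ± 0.26 (spot error), or 42.9-fold lower, at rank 28 from the lowest of the 16996 measured genes. A probe named AI790276 lies 1338 bases away on the same strand. It gave 54.4 ± 6.76 on the NYT array against 6155 ± 615 on the control array, a log2 difference of -5.80, so it differed in the same direction and by a similar size.

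Among the effectors, Gzmb encodes granzyme B, a protease that cleaves after aspartate and activates caspases in the target cell. Its probe (chromosome 14, from 56877916, minus strand) gave 11.5 ± 4.19 on the NYT array, against 1901 ± 190 on the control array, at least 48.9-fold lower and at rank 10 of the 1855 genes detected on the control array alone. Gzma encodes granzyme A, a trypsin-like protease of the same granules. Its probe (chromosome 13, from 113884035, minus strand) gave 11.8 ± 4.50 on the NYT array, against 577 ± 57.9 on the control array, at least 14.8-fold lower. The unnamed probe that overlaps it (113884029 to 113884088) gave 10.3 ± 4.52 on the NYT array, against 464 ± 46.7 on the control array, at least 11.9-fold lower. These overlapping probes share most of their sequence and count as 1 measurement of the gene.

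Prf1 encodes perforin, the pore-forming protein that lets granzymes enter the target cell. Its probe (chromosome 10, 60766941 to 60767000, plus strand) gave 162 ± 16.7 on the NYT array, against 442 ± 44.5 on the control array, both well above background. After scaling this was a log2 difference of -0.43 ± 0.21, or 1.35-fold lower, and 20.7% of the measured genes lay lower. Prf1 was the only one of the 10 genes inside the 2-fold limit. It passed that limit where no scaling was applied (-1.45), as 36.4% of measured genes did in this direction, and where the arrays were scaled to spike-in RNA (-1.61), as 44.0% did.

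Nkg7 encodes a membrane protein of cytotoxic granules that takes part in their release, and its pair of probes differed widely. Probe 1 (chromosome 7, 50693530 to 50693589, plus strand, starting at base 726 of the transcript) gave 2168 ± 217 on the NYT array, against 10850 ± 1085 on the control array. Probe 2 (50693148 to 50693207, starting at base 473) gave 44.1 ± 5.99 on the NYT array, against 3739 ± 374 on the control array. Both probes were lower on the NYT array, by -1.30 ± 0.20 (2.47-fold) for probe 1 and by -5.39 ± 0.24 (41.8-fold) for probe 2, on the log2 scale. The gap between these differences exceeds their spot errors, and its cause was not tested. As the brighter of the pair, probe 1 stands for the gene in the counts, and with the mean over both probes Nkg7 stood at -3.35.

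Eomes encodes a T-box transcription factor needed for NK cell maturation. Its probe 1 (chromosome 9, from 118394425, plus strand) gave 9.53 ± 4.12 on the NYT array, against 420 ± 42.4 on the control array, at least 10.8-fold lower. Its probe 2 (from 118395189) gave 5.45 ± 4.07 on the NYT array, against 61.6 ± 8.24 on the control array. That probe was near the detection level on the control array too, so its bound was 1.59-fold and adds little.

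**Figure D1:**
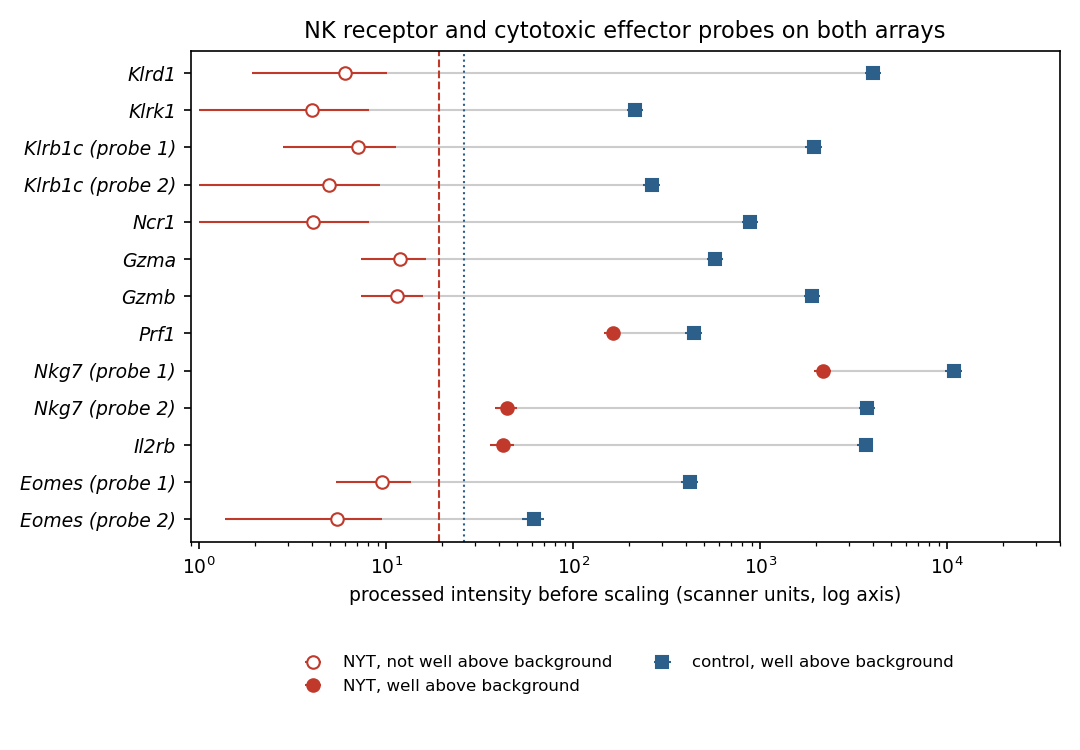
Processed intensity before scaling (scanner units, log axis) of the 13 probes on the NYT array (red circles, open where not well above background) and the control array (blue squares), with the deposited spot errors, cut at the left edge of the axis. The dashed red and dotted blue lines mark the lowest signals well above background, 19.2 on the NYT array and 26.0 on the control array, and 9 of 13 probes lie left of the red line on the NYT array.

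Of the 3 genes measured on both arrays, 2 (Il2rb and Nkg7) had lower NYT signal by 2-fold or more, against 11.0% of the 16996 measured genes, and none was higher, against 11.2%. Their median log2 difference was -1.30 and that of all measured genes 0.29. With no filter on dim probes, each of the 10 genes has a difference, and their median was -5.07, against 0.50 for 30163 genes. Under that setting 9 of 10 were at least 2-fold lower, against 11.3% of genes. Its folds rest on NYT signals near background, reaching 329-fold for Klrd1, 135-fold for Klrb1c, 108-fold for Ncr1 and 81.7-fold for Gzmb, and 26.4-fold, 24.1-fold and 21.8-fold for Klrk1, Gzma and Eomes.

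**Figure D2:**
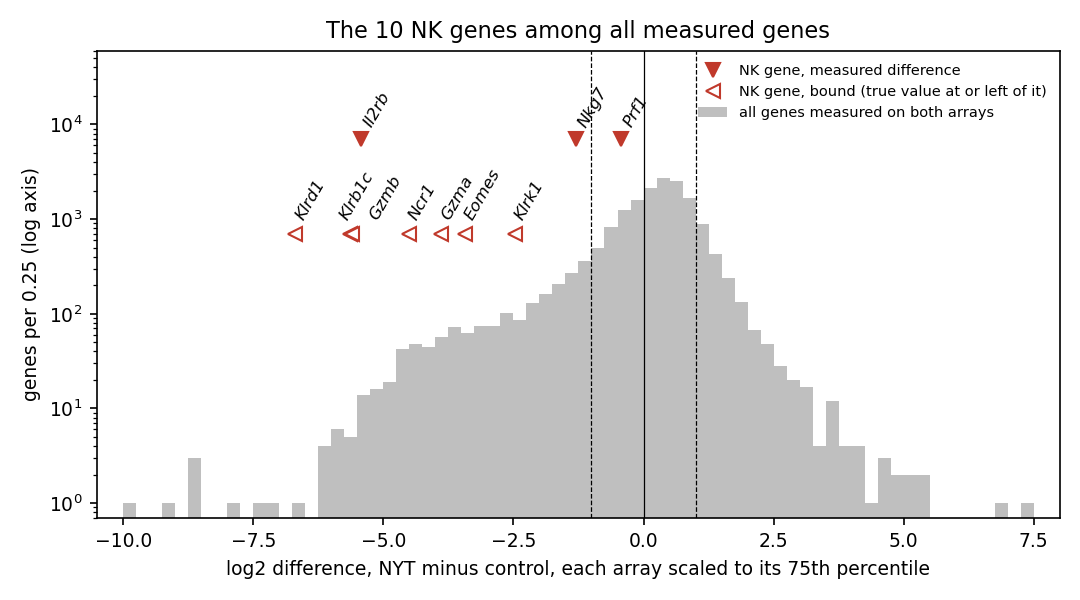
Histogram of log2 differences, NYT minus control, for the 16996 genes measured on both arrays (grey, number of genes per 0.25 on a log axis), with the 10 NK genes above it, as filled triangles for measured differences and open triangles for bounds. Dashed lines mark 2-fold, and Prf1 is the only one of the 10 genes between them.

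For the 3 genes measured on both arrays, the direction did not depend on how the arrays were made comparable. Over the 10 alternatives that give a value per gene, all 3 were lower on the NYT array. A bound is set so that it cannot be above 0, so the sign of a bound is no check of direction for the other 7. With no filter on dim probes, where each of these 7 has a difference, all 7 were lower, on NYT signals near background. Klrd1 ranged between -8.36 and -4.71, Il2rb between -6.60 and -4.16, and Gzmb between -6.79 and -3.64. Prf1 ranged between -1.61 and -0.23, and Klrk1 had a bound of -0.86, under 2-fold, with normexp background correction and an offset of 50. By a less strict detection flag, 8 of 10 genes were above background on both arrays, with Klrk1 and Ncr1 left as detected on the control array alone, against 5.91% of genes by that flag.

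**Figure D3:**
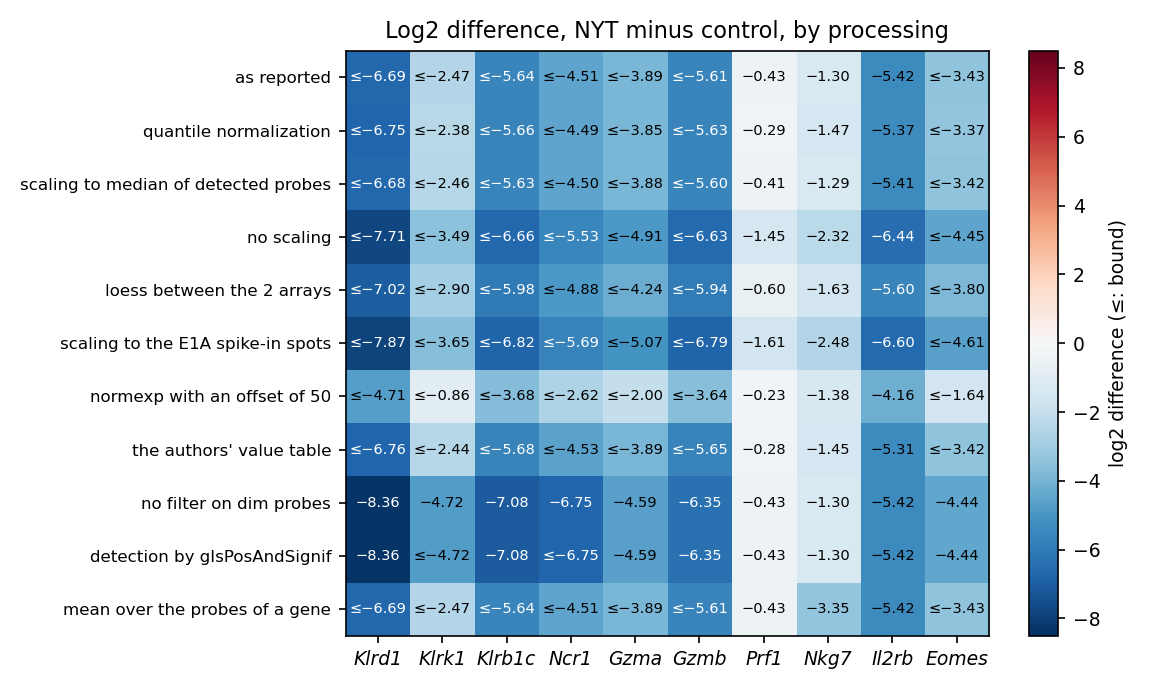
Log2 difference, NYT minus control, of each of the 10 genes (columns) as reported and under 10 alternatives (rows), with bounds marked by ≤ and blue for lower on the NYT array. Every cell is below 0, though a bound cannot be above 0 by the way it is set. Prf1 and Nkg7 are the palest columns in most rows.

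Klrd1, Klrk1 and Klrb1c lie in the NK gene complex on chromosome 6, a run of 42 protein-coding genes between Klrb1a and Klra1. Of the 39 other genes there, 37 were on the array and 18 were measured on both arrays. Of those 18, 5 were at least 2-fold lower, 2 higher and 11 between. Among all measured genes 11.0% were lower and 11.2% higher, so the share of higher genes was near that of all genes. A further 12 were detected on the control array alone, as were 9.56% of the 19404 genes detected on 1 or both arrays. A bound of at least 2-fold held for 9 of these 12, and 7 other genes were not detected. Klrb1a and Klrb1b, close relatives of Klrb1c, differed by -5.24 and -5.31. Klrc1, which encodes NKG2A, the inhibitory partner of CD94, had a bound of -4.91 on the log2 scale. The higher genes, named after their values were seen, were Clec2i (1.92), a ligand of the NKR-P1 family, and Klra8 (1.75), the activating Ly49H receptor. Without scaling, which shifts every difference by 1.02, Clec2i stood at 0.90 and Klra8 at 0.73, within 2-fold. Klra, Klrb1 and Klrc genes have close copies in the complex, so their separate values are uncertain.

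**Figure D4:**
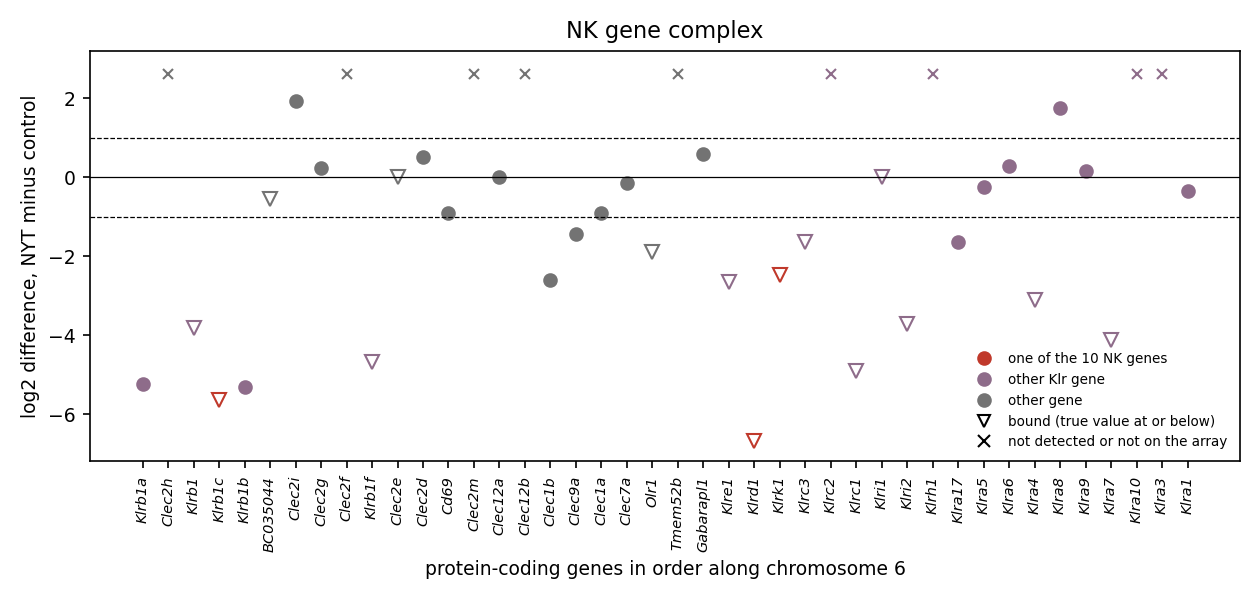
Log2 difference, NYT minus control, along the NK gene complex of chromosome 6, with genes in chromosomal order, filled circles for measured differences, open triangles for bounds and crosses for genes not detected or not on the array. Klrd1, Klrk1 and Klrb1c (red) lie among both lower genes and genes within 2-fold (dashed lines).

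Lists of genes that work with these 10 were described in the same way, beside a background of 11.0% lower and 11.2% higher. Of all genes detected on 1 or both arrays, 9.56% were detected on the control array alone. Which cells gave the signal was not tested for any gene of these lists or of the marker lists below, lower or higher. Among 31 other NK receptors, 13 were measured on both arrays, with 5 lower, 2 higher and a median of -0.50, and 15 were detected on the control array alone, 13 of them with a bound of at least 2-fold. That median leaves the 15 out. It was -3.08 over the 30 receptors on the array with no filter on dim probes, with 19 lower, and -3.04 over 23 by the less strict detection flag. Cd96, a receptor for the poliovirus receptor CD155, differed by -5.34, and Cd226, an activating receptor for the same ligand, was at least 19.2-fold lower. Klra2, a Ly49 family gene, differed by -3.10, and Klrb1f was at least 25.5-fold lower. The 2 higher genes were Klra8 and Slamf7 (1.65), named after their values were seen, and without scaling they stood at 0.73 and 0.64. Slamf7 is also made by other leukocytes, and which cells gave its signal was not tested.

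Downstream of the receptors, 13 of 17 adaptors and signalling genes were measured on both arrays, and 6 were lower and 0 higher, with a median of -0.70. The tyrosine kinase Zap70, which acts below antigen and NK receptors, differed by -4.58 by its brighter probe and by -3.66 by its other probe, and the kinase Txk was at least 39.2-fold lower. The SLAM adaptor Sh2d1b1 differed by -2.73 and Sh2d1a, which encodes the related adaptor SAP, was at least 10.2-fold lower. Of the adaptors that carry the signal of Klrk1, Ncr1 and other receptors, Hcst (DAP10, -0.60), Tyrobp (DAP12, 0.32) and Fcer1g (0.58) were within 2-fold. They were named after their values were seen. Myeloid cells also make these adaptors, and which cells gave their signal was not tested. Another adaptor of the list, Cd247, was detected on the control array alone and was at least 3.07-fold lower. With no filter on dim probes Cd247 stood at -0.69.

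Around the granule genes, 8 of 14 other granzymes and granule contents were measured on both arrays, with 5 lower, 0 higher and a median of -1.49. Gzmc, which neighbours Gzmb, differed by -5.32. Ctsw, a cathepsin of NK and cytotoxic T cells, differed by -5.02, and Srgn, the proteoglycan that packs granule proteins, by -1.88. Which cells gave the Srgn signal was not tested. All 10 genes of granule docking and release were measured, with 5 lower, 0 higher and a median of -0.78, led by Rab27a (-2.79), which tethers granules at the membrane, and Stx11 (-2.15), which takes part in their fusion. Among the granzyme inhibitors, Serpinb6b differed by 1.82, Serpinb6a by 0.92 and Serpinb9, which inhibits granzyme B, by -0.24. Their median of 0.92 stood at -0.10 without scaling, where the median of all measured genes was -0.73.

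Of 10 death ligands and NK cytokines, 5 were measured on both arrays, with 2 lower and 0 higher, and the other 5 were detected on the control array alone with bounds of at least 2-fold. The median was -0.57 over the 5 measured genes and -3.70 over all 10 with no filter. Ccl5, a chemokine of cytotoxic lymphocytes, differed by -6.19 and Lta by -1.11. Ccl4 (0.90), Ccl3 (0.45, named after its value was seen) and Tnf (-0.57) were within 2-fold. Without scaling Ccl4 stood at -0.12 and Ccl3 at -0.57. Xcl1, a chemokine that attracts cross-presenting dendritic cells, was at least 56.7-fold lower, Tnfsf10 (TRAIL) at least 18.2-fold and Ifng at least 13.9-fold. The list for the pathway of Il2rb also held receptor chains for interleukin-12, interleukin-18 and interleukin-21. Of its 13 measured genes, 6 were lower and 0 higher, with a median of -0.93. Il2rg (-0.44), Il15ra (-0.46), Jak1 (-0.80), Jak3 (-0.93), Stat5a (0.59) and Stat5b (-0.23) were within 2-fold. The dimmer probes of Il15ra (-1.24) and Jak3 (-1.08) were past it, and Il2ra (-2.24) and Il15 (-1.32) were lower. These genes were named after their values were seen. Il18rap, a chain of the interleukin-18 receptor, differed by -4.08, Il21r, the interleukin-21 receptor, by -3.09 and Cish, a feedback inhibitor induced by STAT5, by -2.97, whereas Il18r1, the other chain of the interleukin-18 receptor, was at least 81.1-fold lower. The interleukin-12 receptor chain Il12rb1 differed by -3.34 by its brighter probe and by -0.81 by its other probe.

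Beside Eomes, 14 of 18 transcription factors of NK and cytotoxic T cells were measured on both arrays, with 5 lower, 1 higher and a median of -0.43. Tbx21, the related T-box factor T-bet, was at least 31.4-fold lower, Gata3 differed by -4.09, Ets1 by -2.21 and Stat4 by -2.05. The higher gene, named after its value was seen, was Id2 (1.16, and 0.14 without scaling), a regulator that is needed for NK cells. It is also widely made by myeloid cells, and which cells gave its signal was not tested. Of 16 ligands of NK receptors, 12 were measured on both arrays, with 0 lower, 6 higher and a median of 0.98. Raet1c and Raet1e, ligands of Klrk1 with close copies, differed by 2.26 and 2.02, and Pvr, the ligand of Cd96 and Cd226, by 2.08. Without scaling the ligands' median was -0.04, against -0.73 for all measured genes. Of the 12, 3 were then higher, against 1.24% of all measured genes, and 2 lower, against 36.4%. With spike-in scaling the ligands' median was -0.20, against -0.89 for all measured genes. There 1 was higher, against 0.977%, and 3 lower, against 44.0%. These settings move every gene by the same amount, so the sign of the ligands' median turned while it stayed above that of all measured genes.

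**Figure D5:**
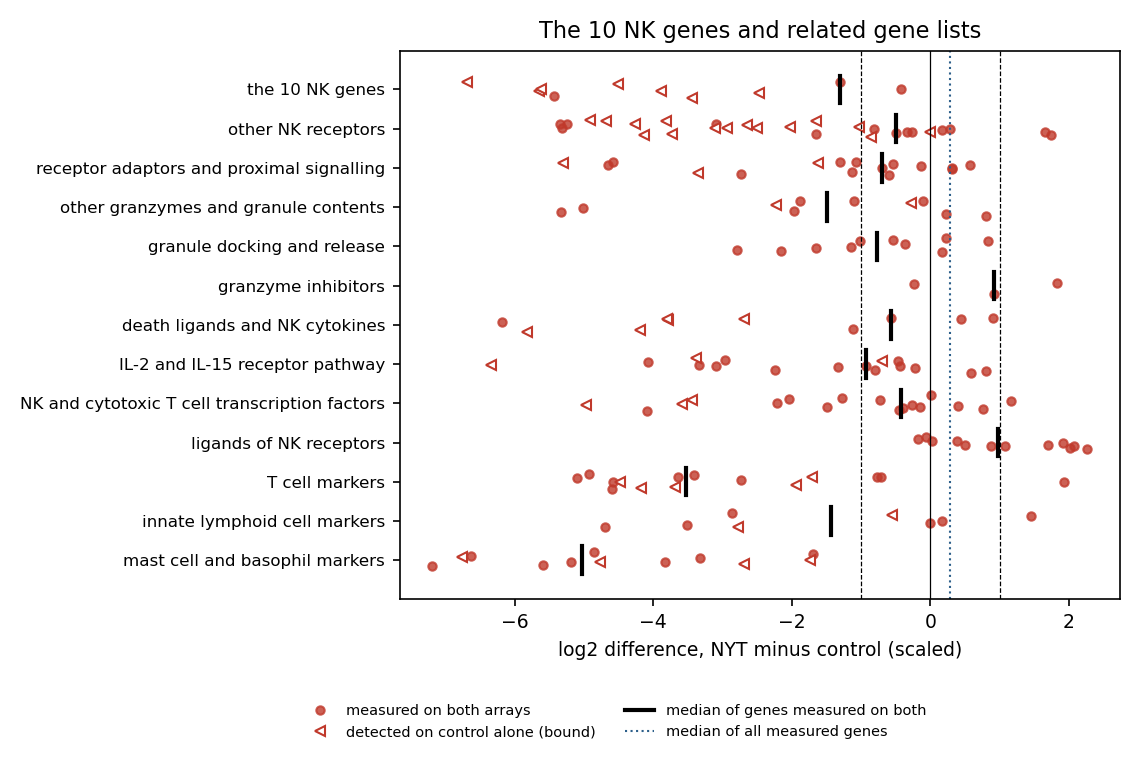
Log2 difference, NYT minus control, of the 10 NK genes and of related lists (rows), with filled circles for genes measured on both arrays, open triangles for bounds of genes detected on the control array alone, black bars for the median of the measured genes and a dotted line for the median of all measured genes (0.29). The 10 NK genes lie left of 0, and the ligands of NK receptors have a median of 0.98.

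Most markers of other cells that make some of these genes were also lower on the NYT array. Among all measured genes 11.0% were lower and 11.2% higher. Of all genes detected on 1 or both arrays, 9.56% were detected on the control array alone. For T cells, which share Prf1, Nkg7, Il2rb, Eomes and the granzymes, 7 of 10 measured markers were lower and 1, Cd28, was higher (1.93, and 0.91 without scaling; named after its value was seen), and 5 of 15 were detected on the control array alone, all with a bound of at least 2-fold. The median of the 10 measured T cell markers was -3.53. Cd3d differed by -4.93 and Thy1 by -5.10, while Cd8a was at least 12.9-fold lower and Cd8b1 at least 18.0-fold. The 2 measured T cell markers within 2-fold were Cd3e (-0.72) and Cd4 (-0.76), named after their values were seen. For innate lymphoid cells, which share Ncr1, 3 of 6 were lower, with Il1rl1 at -4.69. Another, Il7r, was higher (1.45, and 0.43 without scaling), and the list's median was -1.44. For mast cells and basophils all 8 measured markers were lower, with a median of -5.02 and Cpa3 at -7.18. The summed scaled signal was 3.33 on the NYT array and 16.9 on the control array for the 10 NK genes, 15.2 and 25.8 for T cell markers, 19.8 and 38.8 for innate lymphoid cell markers, and 1.54 and 56.5 for mast cell and basophil markers, NYT before control in each pair. A single gene made up most of the NYT sum for the first 3 lists. Nkg7 alone gave 2.98 on the NYT array and 7.35 on the control array, Cd28 alone 10.6 on the NYT array and 2.78 on the control array, and Il7r alone 16.5 on the NYT array and 6.02 on the control array. The part of these cells in the values of the 10 NK genes was not tested. In these cultures, labelled as mononuclear cells, all 8 B cell markers were measured on both arrays, with 1 lower and 0 higher. The share of lower B cell markers was near that of all genes. All 8 macrophage markers were measured, with 2 lower, Fcgr1 (-1.70) and Adgre1 (-1.01), and 2 higher, Trem2 (1.63) and Cd68 (1.18). All 9 neutrophil markers were measured, with 7 lower and 0 higher.

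RefSeq promoters on the build GRCm38.p6 were found for 8 of the 10 genes, Klrd1 and Il2rb not being among them. The promoters of Gzmb, Ncr1, Nkg7 and Prf1 are shown, over the 250 bases before the transcript start, as examples from the receptor and granule groups. Those of Klrb1c, Klrk1 and Gzma also hold a match to a motif searched and are not shown. Capitals mark letters that match a motif on either strand, namely TGTGGT (the RUNX motif), GTGTGA (a T-box half-site, the family of Eomes), GGAAGT (an ETS core) and TTCNNNGAA (a STAT palindrome), and no matches overlapped.
Gzmb promoter, chr14:56262335-56262584, minus strand: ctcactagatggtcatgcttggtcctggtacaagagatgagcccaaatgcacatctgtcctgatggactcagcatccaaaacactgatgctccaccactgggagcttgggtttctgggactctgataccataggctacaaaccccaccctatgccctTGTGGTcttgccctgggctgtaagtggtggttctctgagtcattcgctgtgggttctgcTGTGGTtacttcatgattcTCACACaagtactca
Ncr1 promoter, chr7:4337465-4337714, plus strand: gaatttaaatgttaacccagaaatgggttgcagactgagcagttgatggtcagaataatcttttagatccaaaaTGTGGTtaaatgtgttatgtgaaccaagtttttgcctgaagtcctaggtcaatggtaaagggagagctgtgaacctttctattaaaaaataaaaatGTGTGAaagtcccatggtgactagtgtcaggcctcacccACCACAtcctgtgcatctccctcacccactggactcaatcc
Nkg7 promoter, chr7:43436888-43437137, plus strand: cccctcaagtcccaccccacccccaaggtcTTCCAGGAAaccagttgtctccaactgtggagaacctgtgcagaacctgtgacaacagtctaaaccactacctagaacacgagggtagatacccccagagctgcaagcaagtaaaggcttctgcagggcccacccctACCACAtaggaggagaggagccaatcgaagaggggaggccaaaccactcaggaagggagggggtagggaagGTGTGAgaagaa
Prf1 promoter, chr10:61297586-61297835, plus strand: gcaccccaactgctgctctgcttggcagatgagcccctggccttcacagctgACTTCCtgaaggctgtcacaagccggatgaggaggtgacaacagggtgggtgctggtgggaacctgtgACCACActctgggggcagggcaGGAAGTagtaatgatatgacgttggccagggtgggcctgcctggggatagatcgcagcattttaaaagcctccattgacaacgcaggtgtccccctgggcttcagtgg
The RUNX motif was in 7 of the 8 promoters, all but that of Eomes, and in 14.0% of all 32851 promoters of the same length. The T-box half-site was in 3 of 8 (Gzmb, Ncr1 and Nkg7), against 12.3% of all promoters, the ETS core in 2 of 8 (Klrb1c and Prf1), against 19.7%, and the STAT palindrome in 1 of 8 (Nkg7), against 7.02%. In Gzmb the T-box match began 15 bases before the start and in Nkg7 12 bases before it. A match is a string of letters in a window and not a shown binding site. Prf1, whose values were closest on the arrays, holds a RUNX match as do 6 others of the 8.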

How the data were processed

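RNA of 1 NYT culture and 1 untreated control culture was hybridised to Agilent 4x44K v2 mouse arrays. The authors deposited the scanner's processed intensity of each spot, not scaled between arrays. The file headers name version 10.7.1.1 of Feature Extraction and the submitters' processing notes 9.5.1.1. Outliers and signal above background were taken from the deposited spot flags. The authors' value table, an intensity deposited after normalization between the arrays, was an alternative. It followed each array's own values (Spearman 0.999996 for NYT and 0.99996 for control, across probes).

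Outlier spots (165 on the NYT array, 258 on the control array) were left out, log2 values averaged over the spots of a probe, and the 75th percentile of the array subtracted. A probe was well above background where over 50% of its spots were, on 22760 probes (57.7%) of the NYT array and 24507 (62.2%) of the control array. The brightest of a gene's probes that passed on both arrays stands for it. A gene detected on 1 array got a bound. Probes were named through RefSeq (GRCm38.p6) by accession (26761), symbol (3814) or synonym (639), and 8215 kept the file's name. Probe coordinates are the files' (mm9). Python 3.11.15, R 4.3.3 and limma 3.58.1 (normexp, loess, quantile) were used.

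No test was possible with single arrays, whose number limits the precision. Genes were counted at 2-fold. Named genes are the 10, and from each list up to 4 measured on both arrays with the largest difference and up to 3 with the highest bound, with exceptions marked. A gene that the rule took is not reported here. The counting at 2-fold was tested on simulated arrays with spot noise alone and every gene detected on both. Detection and bounds were not tested in this way. The 10 genes, the 15 lists and the 11 alternatives were chosen with earlier results of these data known.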

Additional observations from a re-analysis of the deposited data

How the results depend on the processing

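No paired analysis was possible because single arrays of NYT and control give no test, and there was no replicate to leave out. Of the 10 genes, 9 were at least 2-fold lower by difference or bound as reported, and between 8 and 10 under the 11 alternatives, with 10 where Prf1 passed 2-fold (no scaling, spike-in scaling) and 8 where Klrk1 (normexp) or Nkg7 (3-fold threshold) did not pass. The share of all genes so called was 13.4% as reported, 38.9% without scaling, 46.3% with spike-in scaling, 8.45% with normexp and 8.71% at 3-fold. The median of the genes measured on both arrays, -1.30 as reported, was -1.47 with quantile normalization, -1.45 in the authors' value table, -1.63 after loess, -1.38 with normexp, -2.32 without scaling, -2.48 with spike-in scaling and -3.35 with the mean over probes. It was -5.07 with no filter on dim probes and -5.01 with the less strict detection flag, since more genes then have a difference. The count of measured genes at least 2-fold lower, 2 as reported, was 9 with no filter, 7 with the less strict flag and 1 at 3-fold, against 11.3%, 12.2% and 6.87% of all genes. The count detected on the control array alone, 7 as reported, was 2 with the less strict flag, against 9.56% and 5.91% of all genes. With no filter every gene is taken as measured on both arrays, so this count is 0 by construction. The median of all measured genes was 0.29 as reported, -0.73 without scaling, -0.89 with spike-in scaling and -0.02 after loess. Signal over background limits the size of the difference for the 7 genes dim on the NYT array.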

Other observations

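Outside the NK gene complex, the chromosomal neighbours of the other genes gave mixed values, to be read against the 11.0% of all measured genes that were at least 2-fold lower and the 11.2% that were higher. Of the 10 protein-coding genes nearest to Il2rb, 7 were measured on both arrays, with 0 lower and 3 higher, namely Mpst (2.49) and Tst (2.43), enzymes of sulfur metabolism, and Kctd17 (1.95, and 0.93 without scaling), on the log2 scale, NYT minus control. Around Gzmb, 4 of 10 neighbours were measured on both arrays and 1, Gzmc, was lower. Around Gzma, 2 of 6 measured neighbours were lower, Ccno at -3.02 and Gpx8 at -3.27, and Esm1 was detected on the control array alone and lower by at least 7.59-fold. Gzmk, the granzyme gene beside Gzma, differed by 0.23. Around Eomes, 1 of 8 measured neighbours was lower, Itga9 at -3.05, a share near that of all genes, and around Prf1 2 of 8 were, Unc5b at -1.34 and Adamts14 at -2.70. Around Ncr1, 3 of 8 measured neighbours were lower and 1 was higher, with Gp6, a collagen receptor of platelets, at -4.33. Around Nkg7, 2 of 8 were lower and 1 was higher, with Siglecf, a receptor of eosinophils, at -3.68. These genes were named after their values were seen.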
